A study of Mus musculus with 3 samples.

Results

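Transcripts of 33 genes known from the proximal tubule, the stretch of nephron next to the renal corpuscle, were examined in arrays of sieved adult mouse renal corpuscles. The 33 genes are a fixed list of transporters, endocytic receptors, metabolic enzymes and regulators, and each was read from the probe set whose platform annotation names that symbol alone, taking the brightest where several exist. Of the 33 genes, 31 had such a probe set, out of 19938 genes on the array, and each of the 31 had exactly 1. Ass1 was found only on probe sets shared with a second symbol, and Ggt1 had no probe set with its symbol.

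The arrays hold 3 samples of 1 group, with no control tissue. The donors were CD-1 mice, an outbred stock, that were wild-type, male and between 7 and 9 weeks old, and about 2 kidneys were pooled for a sample. Tissue was minced, digested for 15 minutes at 37 °C in 0.5% collagenase A, an enzyme that loosens the matrix between cells, and passed over filters of 100, 70 and 40 µm. RNA was amplified in 1 round with a NuGEN Pico kit, labelled with biotin and hybridised to an Affymetrix mouse gene array. The separation rests on size alone, with no cell sort, and in such mixed tissue fewer cells of a type and less RNA per cell cannot be told apart. The labels name no litter or day for a pool, so SDs measure only how these samples vary, which can be technical in part. Detection p-values, described below, speak only of these samples and follow the signal level more than a gene's own spread.

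The proximal tubule takes back most of what the glomerulus filters. Its earlier segments, S1 and S2, are known for sodium-coupled uptake of glucose, phosphate, amino acids, lactate and bicarbonate and for endocytosis of filtered protein. Its last segment, S3, is known for high-affinity uptake, fatty acid and xenobiotic metabolism and, in male mice, for many genes that respond to androgen.

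A group of liver-enriched transcription factors, among them HNF1 and HNF4, is known to act on promoters of proximal tubule genes, and sequences around gene starts are shown here to place the genes of the list that carry these letters. RefSeq promoter windows on GRCm38.p6, from 250 bases before to 50 bases after a gene start, were at hand for 30 of the 33 genes. The HNF1 half-site GTTAAT, searched on both strands so that it also reads ATTAAC, was found in 9 of these 30 genes (30.0%), against 8.24% of all 27025 genes with a window and 7.1% of all 32851 windows. In a further list of proximal tubule genes it was in 9 of 63 (14.3%). The full HNF1 site, GTTAAT and ATTAAC with 1 base of any kind between them, was in 0 of the 30 genes and in 0.0111% of all genes. The 9 genes were Hnf4a, Pck1, Acsm2, G6pc, Slc34a1, Miox, Slc3a1, Slc22a8 and Slc22a6. For 5 of them the stretch is printed on the strand of the gene, with the half-site in capitals.
Hnf4a, chr2:163547062-163547091, plus strand: gcaacgggggtgATTAACcattaactccta
Slc34a1, chr13:55399575-55399604, plus strand: cttgggggtaaaGTTAATttaatggggaaa
Miox, chr15:89334319-89334348, plus strand: ctgtactgatacATTAACttgctgaggtca
Slc22a8, chr19:8593089-8593118, plus strand: cccctgccggatGTTAATcttccaaagaaa
Slc22a6, chr19:8617928-8617957, plus strand: aatactcacaggGTTAATccttctgacacc

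These half-sites began 81 bases before the start in Hnf4a, 61 in Slc34a1, 142 in Miox, 81 in Slc22a8 and 56 in Slc22a6. Hnf4a held a further half-site 74 bases before the same start, and Slc34a1 one at 89. Distances are counted from the start used for the window, and a gene can have several. In Hnf4a and Slc22a8 the stretch lies inside the gene, before a later start. Their RefSeq spans begin at chr2:163506811 and chr19:8591254. The HNF4 letters CAAAGTCCA, on either strand, were in Pdzk1 and Slc3a1 (6.67% of the 30) and in 0.555% of all genes. The TATA letters TATAAA, on either strand, were in 9 of the 30 genes (30.0%) and in 15.7% of all genes. Kap, which had a linear signal over 1000 on every array, carried them 31 bases before its start.
Kap, chr6:133853681-133853710, minus strand: gagtacaggatgTATAAAagcccaggagga

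A match of letters is a description of these windows and says nothing on the binding of a factor.

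Background was set on each array as the 95th percentile of 1212 odorant and vomeronasal receptor probe sets. These receptors were taken as little used in kidney, which was not tested here. Background lay at 6.90, 6.96 and 6.92 log2, or 119, 124 and 121 as linear signal. Detection was a log2 signal above this level in a one-sided limma test over all genes, at an adjusted p under 0.05. Because many deposited values are the same on several arrays, the standard error of the test follows the signal level and the call is in effect a cut close above background. Each probe set has its own affinity, so a distance from background is no measure of how much transcript one gene has beside another.

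Most proximal tubule genes of the list were detected, but close to background. Of the 31 genes with a value 26 were detected (83.9%), against 58.9% of all 19938 genes. Their median lay 0.60 log2 above background, against 0.37 over all genes, and their median linear signal was 183, against 157. A linear signal over 150 was held on every array by 19 of the 31 (61.3%), against 51.3% of all genes. Over 500 the count was 4 (12.9%), against 17.2%, and over 1000 it was 2 (6.45%), against 7.59%. The list thus held a larger share of detected genes than the array as a whole. Its shares over 500 and 1000 rest on 4 and 2 genes and lay near those of all genes. No test was run between these shares.

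**Figure D1:**
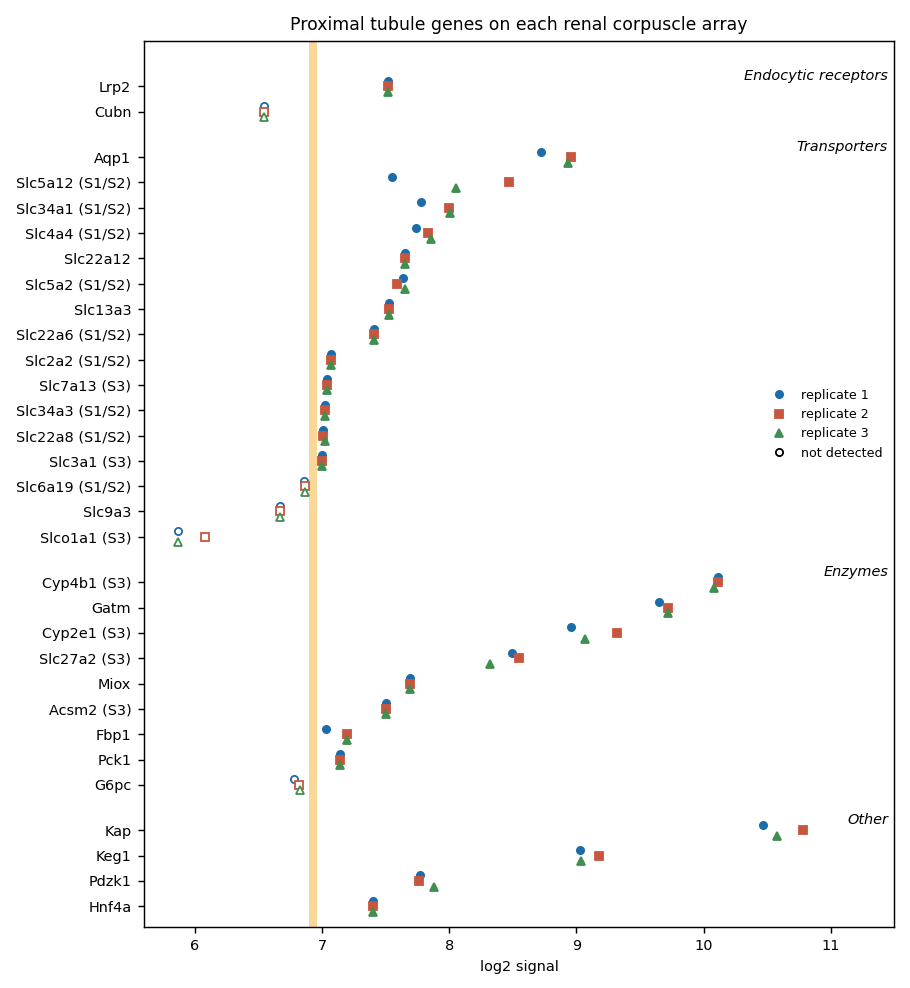
Log2 signal (x axis) of the 31 proximal tubule genes with a value, grouped by role, with the segment where 1 is assigned; circles, squares and triangles are replicates 1, 2 and 3, open symbols are genes not detected, and the band marks background, from 6.90 to 6.96. Most transporters sit between the band and 8, while Kap and Cyp4b1 exceed 10 on every array.

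The 4 genes over a linear signal of 500 on every array were an androgen-responsive transcript, a pair of enzymes and a kidney-enriched gene. Kap, the kidney androgen-regulated protein, had linear signals of 1414, 1756 and 1532 on replicates 1, 2 and 3 and a mean of 10.61 ± 0.16 log2 (SD, n = 3, as for all SDs here). Cyp4b1, a cytochrome P450 assigned to S3, had 1107, 1107 and 1080, or 10.10 ± 0.02 log2. Both stood above 1000 on every array; replicate 1 was the low one for Kap and replicate 3 for Cyp4b1. Gatm, which makes the precursor of creatine, had 805, 842 and 842, or 9.70 ± 0.04 log2. Keg1, a gene named for its expression in kidney, had 524, 582 and 526, or 9.09 ± 0.09 log2. Cyp2e1, a further cytochrome P450 of S3, fell just short on replicate 1, with 499, 638 and 539.

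Among the endocytic receptors the partners went apart. Lrp2, or megalin, the receptor that clears filtered protein, had 7.52 log2 on all 3 arrays and was detected, 0.60 above background. Cubn, or cubilin, which is known to work with megalin, had 6.54 on all 3 arrays and was not detected, 0.39 log2 under background. Of their helpers outside the list, Amn, which brings cubilin to the surface, had 7.31, and Dab2, an adaptor for megalin that other cells also use, had 10.98, each on all 3 arrays. These are different probe sets, so their levels give no ratio of one transcript to another.

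The transporters were detected in 13 of 16 cases (81.2%), against 58.9% of all genes. Their median lay 0.32 log2 above background, against 0.37 over all genes, and none exceeded a linear signal of 500 on all 3 arrays. Aqp1, the water channel, also known from the thin descending limb and from some capillaries, had 8.72, 8.96 and 8.93 log2 (8.87 ± 0.13). Slc5a12, a sodium-coupled lactate carrier, had 7.55, 8.47 and 8.05 (8.03 ± 0.46), the widest spread of any detected gene of the list. Slc34a1, the main sodium-phosphate carrier of the brush border, had 7.78, 8.0 and 8.01 (7.93 ± 0.13). For these 3 carriers the array of replicate 1 was the low one, while replicates 2 and 3 lay close together for Aqp1 and Slc34a1 and apart for Slc5a12.

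A middle group of transporters lay 0.48 to 0.89 log2 above background. It held Slc4a4, the basolateral bicarbonate carrier (7.81 ± 0.07), and Slc5a2, the low-affinity glucose carrier SGLT2 (7.63 ± 0.03). The urate carrier Slc22a12 (7.65), the dicarboxylate carrier Slc13a3 (7.53) and the organic anion carrier Slc22a6 (7.41) also belonged to it, each with the same value on all 3 arrays. An SD of 0 from such ties is not an error of 0.

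The other detected transporters lay within 0.15 log2 of background. Slc2a2, the glucose exit carrier GLUT2, had 7.07 on all 3 arrays, and Slc7a13, an amino acid carrier of S3, had 7.04. Slc34a3, a second phosphate carrier, had 7.02, and Slc3a1, the subunit that pairs with cystine carriers, had 7.00, again on all 3 arrays. Slc22a8, an organic anion carrier, had 7.01, 7.01 and 7.02. These 5 genes lay 0.07 to 0.15 log2 above background, and 3 of them, Slc34a3, Slc22a8 and Slc3a1, were no longer called without replicate 1 and, again, without replicate 3.

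The other 3 transporters were not detected. Slc6a19, the neutral amino acid carrier of the brush border, had 6.86, 6.87 and 6.87, only 0.06 log2 under background. Slc9a3, the sodium-proton exchanger NHE3, had 6.67 on all 3 arrays. Slco1a1, an organic anion carrier that is high in male mouse kidney, had 5.87, 6.08 and 5.87, or 0.98 log2 under background. Every value of these genes lay under the background of its array.

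Of the enzymes 8 of 9 were detected (88.9%), against 58.9% of all genes. Their median lay 0.76 log2 above background, against 0.37 over all genes. Besides Cyp4b1, Gatm and Cyp2e1 (8.96, 9.32 and 9.07 log2, 9.12 ± 0.18), Slc27a2, which activates long-chain fatty acids, had 8.49, 8.55 and 8.32 (8.45 ± 0.12). Miox, the first enzyme of inositol breakdown, had 7.69 on all 3 arrays, and Acsm2, which activates medium-chain fatty acids, had 7.50. Of the genes of glucose synthesis, Fbp1 had 7.03, 7.20 and 7.20 (7.15 ± 0.10) and Pck1 7.14 on all 3 arrays, both 0.22 log2 above background. G6pc, the last step of that pathway, had 6.78, 6.82 and 6.83 and was not detected, 0.11 log2 under background. These 3 genes of glucose synthesis all lay within 0.22 log2 of background. Of the cytochrome P450 genes of the further proximal tubule list with a value, only Cyp2j5 lay above background, by 1.34 log2. The others lay under it: Cyp27b1 at -0.81, Cyp4a10 at -0.80, Cyp4a14 at -1.21 and Cyp7b1 at -1.18 log2.

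The remaining pair of genes was detected too. Pdzk1, a scaffold that anchors carriers in the brush border, had 7.77, 7.76 and 7.88 log2 (7.80 ± 0.06). Hnf4a, the transcription factor that is known for proximal tubule identity, had 7.40 on all 3 arrays, 0.47 above background.

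By segment, S1/S2 and S3 genes were detected at similar counts, 8 of 9 and 6 of 7, and their medians above background were 0.48 and 0.58 log2. The range was wider for S3, from -0.98 for Slco1a1 to 3.18 for Cyp4b1, than for S1/S2, from -0.06 for Slc6a19 to 1.1 for Slc5a12. Of the S3 genes 1 exceeded a linear signal of 500 on all 3 arrays, and of the S1/S2 genes 0. Genes assigned to no single segment were detected in 12 of 15 cases, with a median of 0.60. In a further list of proximal tubule genes, 5 of 8 assigned to S1/S2 and 2 of 9 assigned to S3 were detected, beside 58.9% of all genes. The S3 count was 1 without replicate 1, without replicate 3, under quantile normalization and without the trend in eBayes. The 2 S3 genes were the anion carriers Slc22a13, at 8.03 log2 on all 3 arrays, and Slc22a30, at 7.13, 6.77 and 7.13. Slc22a30 lay only 0.08 log2 above background on average, and under the background of 6.96 on replicate 2.

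The further list named 81 genes, of which 73 had a value, and 33 of the 73 were detected (45.2%), beside 83.9% of the 31 genes above and 58.9% of all genes, with no test between these shares. Its median lay at -0.07 log2, and the range ran from -2.06 to 4.07. The highest means above background were those of Calml4, a brush border light chain (11.11, 10.96 and 10.91 log2), Dab2, and Pth1r, the receptor for parathyroid hormone (10.07 on all 3 arrays). The lowest were those of Slc22a19, an organic anion carrier (4.86), and Kynu, an enzyme of tryptophan breakdown (5.09). Peptidases that brush border and podocytes are both known to carry, listed apart, were detected in 4 of 4 cases, with means of 12.59 log2 for Dpp4, 12.30 for Enpep, 11.30 for Mme and 7.69 for Anpep.

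**Figure D2:**
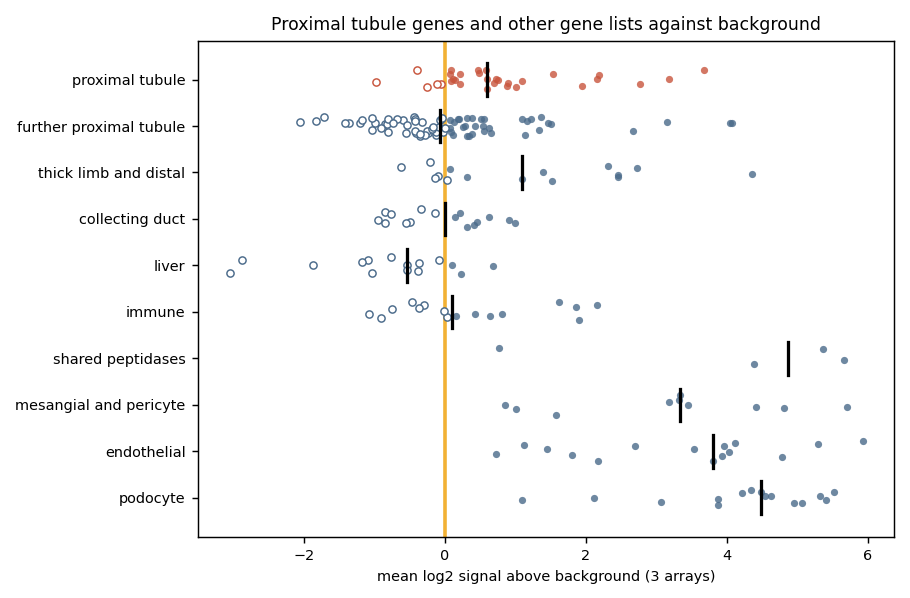
Mean log2 signal above background over the 3 arrays (x axis) for each gene of the proximal tubule list and of lists for other cells; filled circles are detected genes, open circles genes not detected, black bars the list medians, and the vertical line is background. The proximal tubule median of 0.60 lies near the line and the podocyte median of 4.49 far to its right.

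Markers of the corpuscle itself were measured on the same arrays. Podocyte genes were detected in 15 of 15 cases with a median of 4.49 log2 above background, endothelial genes in 15 of 15 with 3.81, and mesangial and pericyte genes in 10 of 10 with 3.33. Genes of the thick limb and distal tubule were detected in 10 of 15 cases (median 1.1), those of the collecting duct in 8 of 16 (median 0.01) and immune genes in 8 of 16 (median 0.10). Genes known mainly from liver, which shares many enzymes with the proximal tubule, were detected in 3 of 15 cases (20.0%): Apoa2, Apoa1 and Hpx. Podocyte, endothelial and mesangial transcripts were thus present. The shares of the collecting duct, immune and liver lists lay under that of all genes. Which cells held the tubule transcripts cannot be told apart in these arrays.

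Between the 3 preparations the proximal tubule genes differed by small folds, with Slc5a12 as the exception. Each array was set against the mean of the other arrays and a gene counted as apart when the larger signal exceeded the smaller by over 25%, with no test, since a preparation has 1 array. Of the 26 detected genes only Slc5a12 was apart, below on replicate 1 (0.919% of all detected genes did so) and above on replicate 2 (1.09%). Its signal on replicate 2 was 1.90-fold that on replicate 1, and on replicate 3 it was 1.42-fold. No gene of the list was apart in the other directions, which held 1.82% of detected genes above on replicate 1, 0.783% below on replicate 2, and 0.723% above and 1.66% below on replicate 3.

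Smaller differences ran mostly one way. Of the 26 detected genes 10 had the same value on all 3 arrays, 6 on 2 of them, and 10 had 3 different values, and only these last have a full order. Among these 10, replicate 1 was lowest for 7, against 26.0% of all 3013 detected genes with 3 different values, and highest for 0, against 50.7%. The 7 were the carriers Slc34a1, Slc5a12, Slc4a4 and Aqp1, with Kap, Cyp2e1 and Keg1. Replicate 2 was highest for 6 (20.7% of such genes) and replicate 3 for 4 (28.6%). The exceptions were Slc5a2 and Pdzk1, lowest on replicate 2 (31.3%), and Slc27a2, lowest on replicate 3 (42.7%).

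The size of the shift was small. The median deviation of the 10 genes from their own 3-array mean was -0.11, 0.094 and 0.025 log2 on replicates 1, 2 and 3, against 0.033, -0.012 and -0.021 over the 3013 genes. The median SD of the 10 was 0.12 log2, against 0.094 over the 3013. Kap on replicate 2 was 1.24-fold its level on replicate 1, Cyp2e1 1.28-fold and Aqp1 1.19-fold. Over all 26 detected genes, ties included, the medians were -0.00091, 0.00083 and 0, and the mean on replicate 1 was -0.051.

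**Figure D3:**
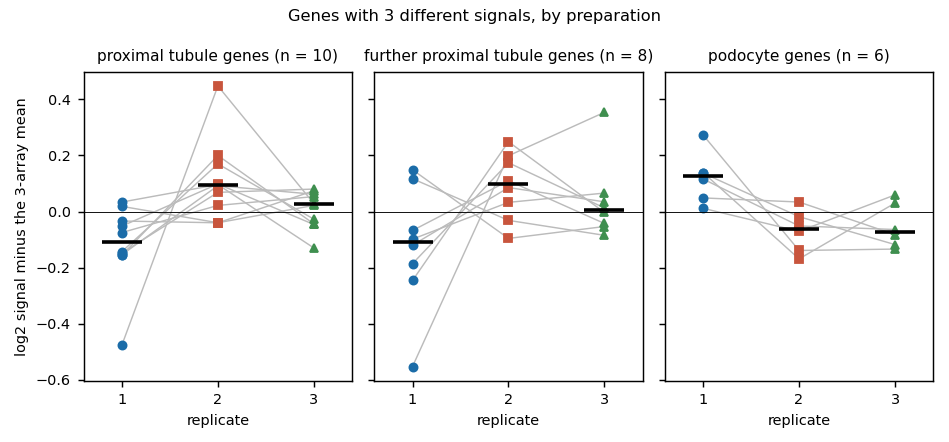
Log2 signal minus the gene's own 3-array mean (y axis) on each replicate, for detected genes with 3 different values: 10 proximal tubule genes, 8 of the further proximal tubule list and 6 podocyte genes; thin lines join the values of 1 gene and black bars are medians. The proximal tubule median on replicate 1 is -0.11 and the podocyte median 0.13.

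Genes outside the list gave values on the same arrays that stand beside this. In the further proximal tubule list 6 of 8 genes with 3 different values were lowest on replicate 1, with a median deviation of -0.11 there. The other 2, Slc7a8 and Calml4, were highest on replicate 1, with deviations of 0.149 and 0.117. Gpx3, the secreted glutathione peroxidase made in the proximal tubule, had 9.04, 9.79 and 9.95 log2, and Slc17a1, an anion and phosphate carrier, 7.23, 7.73 and 7.48. Podocyte genes ran the other way: 5 of 6 were highest on replicate 1 and 0 lowest, with a median deviation of 0.13. Mesangial and pericyte genes were lowest on replicate 1 in 4 of 5 cases. The part of podocyte or mesangial RNA in the order of the tubule genes was not tested.

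Genes of other tubule segments did not share 1 order. Umod, the uromodulin of the thick limb, had 8.77, 9.18 and 9.78 log2, and Slc12a1, its sodium-potassium-chloride carrier, 6.46, 6.70 and 7.33, with 7.33 as its only value above background. Both were highest on replicate 3. The sodium-chloride carrier Slc12a3, with 8.53, 8.51 and 7.95, and Pvalb, a calcium-binding protein, with 8.56, 8.73 and 8.04, were lowest there, while the calcium-binding Calb1, with 9.61, 9.17 and 9.38, was lowest on replicate 2. Of the 5 detected genes of the thick limb and distal list with 3 different values, 3 were highest on replicate 1. Among the 10 proximal tubule genes both orders occurred by rank. Slc34a1 and Slc4a4 were lowest on replicate 1 and highest on replicate 3, as Umod was, but replicates 2 and 3 barely differed for them. Replicate 2 minus replicate 3 was -0.01 log2 for Slc34a1 and -0.03 for Slc4a4, while Umod rose from 9.18 to 9.78. Slc27a2 was highest on replicate 2 and lowest on replicate 3, as Pvalb was.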

How the data were processed

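The authors deposited 1 table of log2 signals for 35557 probe sets on 3 arrays. Affymetrix Expression Console is named in the submitters' processing notes, and the method and settings that made the table are not given in the sources used here. Its values run from 2.36 to 14.40 with array medians of 7.11, 7.11 and 7.09, and no further normalization was applied. Of the probe sets 21789 have 1 gene symbol, 1621 several, which named no gene, and 12147 none. Of all genes 54.2% hold the same value on all 3 arrays, so SDs and p-values may be too small. Detection used limma 3.58.1 in R 4.3.3 (lmFit with an intercept, eBayes with trend, Benjamini-Hochberg over 19938 genes). In simulated data of 19938 genes, 52% of genes 0.1 log2 above background and 100% of those 0.25 above were recovered, and 0.0766% of genes at or below it were called. The simulation drew independent normal noise with the same SD for every gene, the median over genes with 3 different values. It held no ties, so these rates need not hold for the deposited values. Values are given per array for genes above 500, near background, not detected or of widest SD. The members and lists were chosen with earlier results of these data known. Alternatives covered the background level, normalization, probe set, filter, trend and each replicate left out. The number of arrays limits the precision.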

Additional observations from a re-analysis of the deposited data

Results flagged for a closer look

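Probe sets that name a second gene were not used for the comparisons, and 3 of them name a gene of the proximal tubule list with a signal above background. Ass1, an enzyme of arginine synthesis, shares 2 probe sets with Gm5424. One had 8.47, 8.66 and 8.59 log2 on replicates 1, 2 and 3 (mean 8.58, SD 0.10, n = 3), and the other 8.52, 8.64 and 8.58 (mean 8.58, SD 0.06). Both were lowest on replicate 1, and they lay 1.65 and 1.66 log2 above background. Which of the paired genes gave the signal cannot be told apart.

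Acsm2 shares a probe set with ND6, a mitochondrial gene, that had 13.03, 13.22 and 13.13 log2 (mean 13.13, SD 0.10), 6.20 above background. The probe set that names Acsm2 alone had 7.50 on all 3 arrays.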

How the results depend on the processing

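Against the 99th receptor percentile 13 of the 31 proximal tubule genes were detected (41.9%, against 41.7% of all genes), so the excess over all genes was lost. There 3 S1/S2, 3 S3 and 7 unassigned genes, 5 transporters, 5 enzymes and 12 further proximal tubule genes were called. With a fixed signal of 150 the count was 18 (58.1%, against 50.2% of all genes), with 4 of 9 S1/S2 genes and 7 of 16 transporters. With the receptor median 70 further genes were called. Without 1 replicate the list had 23 to 26 calls, S1/S2 6 to 8, S3 5 to 6, unassigned genes 12, transporters 10 to 13, the further list 29 to 33, and 4 to 5 genes exceeded 500. Quantile normalization, the filter on dim genes and eBayes without trend changed no call among the 31 genes; each has 1 probe set, so the choice of probe set could change none.

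Single genes changed side of the background as follows, in log2. At the 99th percentile: Lrp2 -0.04, Slc34a3 -0.54, Slc22a6 -0.15, Slc22a8 -0.55, Slc13a3 -0.03, Slc7a13 -0.52, Slc3a1 -0.56, Slc2a2 -0.49, Fbp1 -0.41, Pck1 -0.41, Hnf4a -0.16 and Acsm2 -0.06. At 150: Slc34a3 -0.21, Slc22a8 -0.22, Slc7a13 -0.19, Slc3a1 -0.23, Slc2a2 -0.16, Fbp1 -0.08 and Pck1 -0.08. At the 90th percentile: Slc6a19 0.28, Slc9a3 0.09 and G6pc 0.23. At the receptor median: Cubn 1.16, Slc6a19 1.49, Slc9a3 1.30, Slco1a1 0.57 and G6pc 1.44. Each follows from moving the background level. Calls were also lost, above background, for Slc5a2 at the 99th percentile (0.07, limma adjusted p = 0.0826) and for Slc5a12 at 150 (0.80, adjusted p = 0.0889).

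With a limit of 10% in place of 25%, 6 of the 26 detected genes lay below on replicate 1, 6 above on replicate 2 and 1 below on replicate 3. The share of all detected genes at this limit was not counted, so these counts cannot be set against the array. The deviation was -0.051 (mean) and -0.11 (3 different values) on replicate 1, and 0.046 and 0.094 on replicate 2. On replicate 3 it was 0.025 for 3 different values and 0.017 under quantile normalization. Of the alternatives added after seeing the data, quantile normalization left 7 genes lowest on replicate 1, all genes with a value gave 8, and a margin of 0.05 log2 gave 6. No paired analysis was possible because there is only 1 group. The 3 arrays and many tied values limit every SD here, and a gene within 0.15 log2 of background is detected or not by the choice of that level.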

Other observations

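The donors were male, and proximal tubule genes known to differ between the sexes of mice were set out by direction. Of 7 genes known to be higher in males 5 were detected, beside 58.9% of all genes (Kap, Cyp4b1, Cyp2e1, Slc7a13 and Slc22a30), and Slco1a1 and Cyp7b1, at 5.94 and 5.75 log2, were not. The count was 3 at the 99th percentile of receptors and at a signal of 150. It was 4 under quantile normalization, without trend, without replicate 1 and without replicate 3. On replicate 2 Slc22a30 lay under the background of its array. Of 3 genes known to be higher in females 0 were detected by limma and 0 passed an unadjusted p under 0.05: Cyp4a14 had a mean of 5.71 log2, Slc7a12 5.56 and Abcc3 6.63. At the 90th percentile of receptors 1 of the 3 was called and at the receptor median 3. No female sample was analysed here, so these values compare no sexes.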
